A study of Mus musculus with 12 samples.

Results

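The loss of PPARγ2 on a leptin-deficient background was examined by setting islets of POKO mice against islets of ob/ob mice over all genes of the array, with 3 arrays of each genotype, 6 of the 12 arrays of the series. The ob/ob mice (class OB in the labels) lack leptin and keep PPARγ2, and the POKO mice (class DKO, labelled OB PPARg2 double KO) lack both. All mice were C57BL/6 x Sv129 on chow, aged 4 weeks by the labels and a week older by the study's text. No source names a deletion limited to 1 tissue. The other 6 arrays, 3 of WT and 3 of PPARγ2KO islets, gave the same loss on the lean background. Each array held RNA pooled from the islets of 3 to 4 mice, hand-picked after collagenase digestion and cultured overnight. The spread between arrays is therefore one between pools, not between mice. An SD given here is over 3 pools. An SE comes from the limma fit of all 12 arrays, which shares the estimate of the spread over all genotypes. Each of the 3 slides carried 1 array of every genotype, always at the same position, so position on the slide and genotype cannot be told apart.

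PPARγ is a nuclear receptor that binds DNA together with RXR and is activated by fatty acids and their derivatives. Its PPARγ2 isoform has an extra N-terminal stretch, is best known from adipocytes, where it drives lipid storage, and can appear in other tissues under nutrient excess. Pancreatic islets consist mostly of insulin-secreting beta cells with alpha, delta and PP cells around them, and in ob/ob mice, which overeat and become insulin resistant, the islets enlarge. The comparison asks which genes of the obese islet depend on PPARγ2 while the mice are still young.

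The arrays were similar in brightness, with 60.4 to 64.9% of the probes well above background on ob/ob arrays and 61.4 to 61.5% on POKO arrays, and the median processed signal was 30.7 to 40.6 and 31.6 to 33.6. All levels below are log2 intensities after quantile normalization. The first ob/ob array stood apart from the other ob/ob arrays. Over all probes its correlation was 0.984 and 0.980 with the other ob/ob arrays, but 0.986, 0.986 and 0.984 with the POKO arrays. The values without it are therefore given beside the groups of genes they move most. Of the ob/ob arrays it was also the closest to each POKO array, so leaving it out tends to widen the differences. Such values show how far a result hangs on that array and add no support to the result. Beta cell markers, 10 genes in all, had a mean level of 10.36, 10.96 and 10.77 on the ob/ob arrays and of 10.12, 10.05 and 9.81 on the POKO arrays. Acinar cell genes, which code for the digestive enzymes of the exocrine pancreas, were bright on all 6 arrays, with a mean level between 17.21 and 17.45 over 13 genes, so none of the 6 arrays held islet RNA alone.

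Few single probes separated the genotypes. With the limits the study used for this comparison, an adjusted p of at most 0.3 and a log2 fold change of at least 1 in size, limma called 9 of 41174 probes (0.0219%), 5 higher (0.0121%) and 4 lower (0.00971%) in POKO islets. At an adjusted p of at most 0.05 there were 2 probes (0.00486%), Osm and an unnamed one (AK052024), neither of them well above background on any of the 6 arrays. At an unadjusted p below 0.05 there were 2022 higher (4.91%) and 1800 lower (4.37%) probes, 9.28% in all. Without the first ob/ob array 1324 probes passed the same limits (3.22%), 655 higher and 669 lower, and all 9 were among them. With 1 array left out at a time the count ran from 2 to 1324, so this omission gave the most calls. Slide and replicate number are the same here, and with the slide as a block limma called 0 probes, while 2280 of the 17305 genes with a symbol had an unadjusted p below 0.05. Over the 17305 genes with a symbol, each taken by its brightest probe, the median log2 fold change was 0.01 and the median standard error 0.21.

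Pparg itself, the targeted gene, was the called gene with the largest fold change. Its level was 8.54, 9.77 and 9.61 on the ob/ob arrays and 6.41, 7.11 and 7.14 on the POKO arrays. Every POKO array lay below every ob/ob array and the probe was above background on all 6. The level fell by 2.42 on the log2 scale (SE 0.35, limma adjusted p = 0.230), which is 5.35-fold. With the slide as a block the adjusted p was 0.388, past the limit. The difference was -2.12, -2.66 and -2.47 on the 3 slides. Without the first ob/ob array the difference was -2.81. On the lean background it was -1.79 (SE 0.35), and the test of the difference between the backgrounds gave an adjusted p of 0.585. The signal that was left on the POKO arrays, with a mean of 6.89 ± 0.41 (SD, n = 3), was not zero. Whether the probe reads the PPARγ2 transcript alone or all Pparg transcripts was not tested, because the array files hold no probe sequence. Lep was not well above background on any of the 6 arrays, with levels of 1.25 to 1.32, so it checks nothing here.

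Acta1, the actin of skeletal muscle, rose in POKO islets. It was 7.67, 7.59 and 7.77 on the ob/ob arrays and 8.77, 9.47 and 9.06 on the POKO arrays, a difference of 1.42 (SE 0.20, adjusted p = 0.230) or 2.68-fold, with no overlap. Of 10 marker genes of skeletal muscle, 7 were not well above background on any POKO array and 4 on any ob/ob array, and their median log2 difference was -0.17. Irgq, an immunity-related GTPase of the Q class, was 6.23, 5.67 and 5.75 against 6.87, 7.06 and 6.92, with the called probe, a difference of 1.06 (SE 0.14, adjusted p = 0.216). A brighter Irgq probe gave 0.23 (SE 0.12, adjusted p = 0.581) and was not called. In lean islets the corresponding differences were 0.29 for Acta1 and -0.16 for the called Irgq probe.

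Thbs4, which codes for the matrix protein thrombospondin 4, was 3.51, 2.88 and 3.73 on the ob/ob arrays and 5.28, 6.00 and 4.77 on the POKO arrays with the called probe. All POKO arrays were higher, and only 1 ob/ob array was well above background. The rise was 1.98 (SE 0.30, adjusted p = 0.276). The brighter Thbs4 probe, measured on all 6 arrays, read 4.15, 3.71 and 3.62 against 5.80, 6.61 and 5.44. It gave a difference of 2.12 (SE 0.45) with an adjusted p of 0.531, so it did not pass the limits. The lean difference of the 2 probes was -0.32 and -0.43. Slc5a10, a sodium-coupled sugar transporter, was just outside the limits. Its levels were 7.06, 6.44 and 6.50 in ob/ob and 9.64, 8.06 and 9.30 in POKO islets, a difference of 2.33 (SE 0.38, adjusted p = 0.306) with no overlap between the genotypes.

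**Figure D1:**
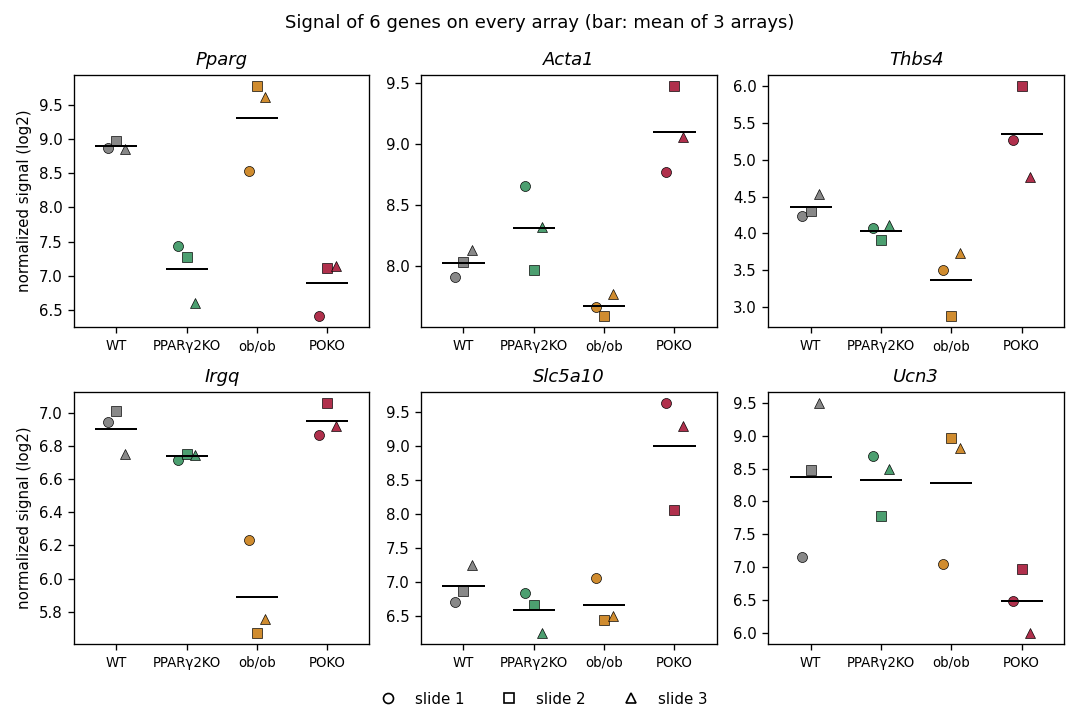
Levels of 6 genes, with Thbs4 and Irgq by their called probes (log2 of the quantile-normalized intensity, y axis) on each of the 12 arrays, by genotype (x axis). Each point is 1 array, its marker gives the slide, and the bar is the mean of 3 arrays. Pparg was lower in both genotypes without PPARγ2, whereas Acta1, Thbs4, Irgq and Slc5a10 were higher on all POKO arrays than on all ob/ob arrays, and Ucn3 was lower.

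The other called probes were dim, and 3 of the genes have brighter probes that were not called. The called probe of Syt12, a synaptotagmin, was not well above background on any ob/ob array and was so on 1 POKO array. It read 1.97, 2.21 and 1.89 against 3.34, 3.08 and 3.31 (adjusted p = 0.276), and was at least 1.22-fold higher. A probe below background on every array of a group has only a bound there, so each such fold is set against the lowest measurable signal of those arrays. The brightest Syt12 probe, measured on all 6 arrays, differed by 1.28 (SE 0.55, adjusted p = 0.533). The called probe of Lin7a, a scaffold protein of polarised epithelia and synapses, was above background on 1 ob/ob array alone, at 2.81, 2.66 and 3.52 against 1.03, 1.03 and 1.04 (adjusted p = 0.257). It gave no bound above 1. The other Lin7a probes measured on all 6 arrays differed by -1.09 (SE 0.47, adjusted p = 0.536) and -0.31 (SE 0.49, adjusted p = 0.949). The called probes of Osm (oncostatin M, a cytokine), Rubcnl (a regulator of autophagy) and the unnamed transcript AK019934 stayed below background on all 6 arrays, and no fold is given for them. A brighter Osm probe, measured on all 6, differed by 0.28 (SE 0.30, adjusted p = 0.828).

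Beyond the called probes, genes with large differences at an unadjusted limma p below 0.01 and no overlap between genotypes are given next. The falls given are only some of the largest. All rises and falls of this kind but Pparg had an adjusted p above 0.3. S100a9, a calcium-binding protein of neutrophils and monocytes, had the largest difference, 4.76 (SE 1.41). It was 8.89, 3.81 and 4.70 on the ob/ob arrays and 9.12, 12.71 and 9.87 on the POKO arrays. The first ob/ob array nearly reached the lowest POKO array while the other two were far below. It was also higher without PPARγ2 in lean islets, by 4.27. Mmp12, the macrophage elastase, read 4.10, 1.29 and 1.75 against 5.34, 5.65 and 4.61, a difference of 2.82 (SE 0.78), and only 1 ob/ob array was well above background. Macrophage markers had a median difference of 0.54 over 11 genes, and their part in both results was not tested. The gene 1810009J06Rik was 13.45, 11.58 and 10.06 in ob/ob and 15.10, 14.08 and 14.49 in POKO islets, a difference of 2.86 (SE 0.80).

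Dio3, the deiodinase that inactivates thyroid hormone, was higher by 2.00 (SE 0.42). Il1rl1, the receptor of interleukin 33, was 6.67, 6.23 and 4.69 in ob/ob and 7.12, 7.98 and 7.56 in POKO islets, a difference of 1.69 (SE 0.47). Fgfbp1, a carrier of fibroblast growth factors, was below background on all ob/ob arrays and at least 4.01-fold higher in POKO islets. Ces5a, a carboxylesterase, was at least 2.50-fold higher in the same way. Rab38, a small GTPase of lysosome-related organelles, was higher by 2.01, Gulo by 1.99 and Serpinb5, a serpin of epithelia, by 1.97. In the lean comparison these 7 genes lay between -0.96 and 0.11. Among the lower genes, Nnat (neuronatin, a proteolipid of endocrine and neural cells) was 6.46, 6.20 and 6.12 in ob/ob and 4.81, 5.40 and 4.67 in POKO islets, a difference of -1.30 (SE 0.35). Folr1, a folate receptor, was lower by 1.29 and Hoxa9, a homeobox factor, by 1.05. Xkr6 and Flrt1 were below background on all POKO arrays, and were at least 1.95-fold and 1.83-fold lower.

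Genes were next read in groups. For each group the number of members at an unadjusted limma p below 0.05 and the median log2 difference are given, beside the same over all 17305 named genes, of which 1151 were higher (6.65%) and 896 lower (5.18%) at that limit. For 3745 of them (21.6%) the levels of the 3 POKO and the 3 ob/ob arrays did not overlap. These counts describe the groups and are not a test of them.

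Genes of beta cell identity and glucose sensing were lower in POKO islets. Of 31 genes, 30 had a negative difference, 6 were lower at an unadjusted p below 0.05 (19.4%) and 0 higher, and 18 did not overlap between the genotypes (58.1%). The median difference was -0.69. Nkx6-1, a transcription factor that keeps beta cells in their state, was 11.86, 12.25 and 12.41 on the ob/ob arrays and 11.46, 11.35 and 11.18 on the POKO arrays, a difference of -0.84 (SE 0.28). Nkx2-2, a partner of it in islet development, was 9.36, 9.89 and 9.63 against 8.80, 8.78 and 8.45, a difference of -0.95 (SE 0.31). In both, each POKO array lay below each ob/ob array.

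Ucn3, a peptide of mature beta cells that acts on delta cells, had the largest difference of the group, with 7.05, 8.96 and 8.82 against 6.48, 6.98 and 6.00, or -1.79 (SE 0.66). Kcnj11, the pore of the ATP-sensitive potassium channel, was lower by 0.67, Pdx1, the regulator of insulin transcription, by 0.62, and Trpm5, a cation channel, by 1.31. Several genes of the same size of difference missed the limit. Slc2a2, the glucose transporter GLUT2, read 6.22, 7.55 and 7.87 in ob/ob and 6.72, 6.09 and 5.93 in POKO islets, a difference of -0.96 (SE 0.50) in which the first ob/ob array overlapped the POKO arrays. Slc30a8, the zinc transporter of the insulin granule, was 8.20, 9.15 and 8.96 against 8.22, 8.05 and 7.58, or -0.82 (SE 0.46), and again the first ob/ob array lay among the POKO arrays. Hnf4a was the only member that was higher, by 0.40.

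The probes of the insulin genes read at or near the top of the scale. Ins1 was 18.42, 18.62 and 18.58 in ob/ob and 18.34, 18.28 and 18.15 in POKO islets, a difference of -0.28 (SE 0.28) without overlap. Ins2 stood at 18.95, the top of the quantile-normalized scale, on all ob/ob arrays and 2 POKO arrays and at 18.90 on the other, so its probe could not show a rise and could show a fall only by losing that rank.

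The machinery of insulin granule exocytosis went the same way. Of 26 genes, 24 were lower, 7 of them at an unadjusted p below 0.05 (26.9%), 1 was higher at that limit, and the median was -0.65. Vamp2, the SNARE protein of the granule membrane, was 9.36, 9.86 and 10.49 in ob/ob and 8.86, 8.87 and 8.81 in POKO islets, a difference of -1.06 (SE 0.32). Its dimmer probes gave -0.63 (SE 0.36) and -0.64 (SE 0.39). Syt7, a calcium sensor for insulin release, was 12.27, 12.60 and 13.00 against 11.77, 11.65 and 11.54, or -0.97 (SE 0.33). Dimmer Syt7 probes gave -1.07 (SE 0.28), -0.39 (SE 0.25) and -0.33 (SE 0.37). Syt4 was lower by 0.85 (SE 0.33) and Scg5, a chaperone of prohormone convertase 2, by 0.87 (SE 0.36). By their brightest probes none of these 4 genes overlapped between the genotypes. Rab27b was the gene higher at an unadjusted p below 0.05. It read 6.18, 5.09 and 5.27 in ob/ob and 6.66, 6.44 and 7.07 in POKO islets, a difference of 1.21 (SE 0.39).

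Most markers of other endocrine cells differed in the same direction. Of 8 alpha cell genes 7 were lower, with a median of -0.45, although Gcg, which codes for glucagon, differed by only -0.14 (SE 0.09). Sst, the somatostatin of delta cells, was 15.63, 16.23 and 16.10 in ob/ob and 15.39, 14.83 and 14.58 in POKO islets, a difference of -1.06 (SE 0.34) with no overlap. Of the 4 delta cell genes 2 were lower at an unadjusted p below 0.05 (Sst and Rbp4, by 0.62) and 1 was higher (Ghsr, the ghrelin receptor, by 0.42), and the median was -0.46. The summed level of the 10 beta cell markers was 19.75 to 19.85 in ob/ob and 19.63 to 19.68 in POKO islets. This sum was taken before the log2 step, so it is mostly Ins1 and Ins2, at or near the top of the scale. The mean log2 level of the same markers was 10.36 to 10.96 in ob/ob and 9.81 to 10.12 in POKO islets. In pooled islet RNA, fewer cells of a type and less of its RNA per cell cannot be told apart.

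The size of these differences depended on the slide. The median of the beta cell identity group was -0.33 on the first slide and -0.88 and -0.84 on the others, and that of the exocytosis group -0.11, -0.84 and -0.88. Without the first ob/ob array the medians over all slides were -0.85 and -0.83. Then 6 beta cell identity genes (Nkx2-2, Slc2a2, Pcsk2, Gipr, Ucn3 and Ero1b) and 7 exocytosis genes passed the limits of 0.3 and 1 as lower. As higher, 0 beta cell identity genes and 1 exocytosis gene (Rab27b) passed. Of the 17305 named genes 339 passed as lower (1.96%) and 393 as higher (2.27%). In lean islets the medians were 0.12 and 0.15, and 2 and 0 genes were lower at an unadjusted p below 0.05, where 787 (4.55%) of all named genes were higher and 741 (4.28%) lower. The difference between the backgrounds had an unadjusted p below 0.05 for 5 of 31 and 7 of 26 genes, against 2783 of 17305 (16.1%).

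**Figure D2:**
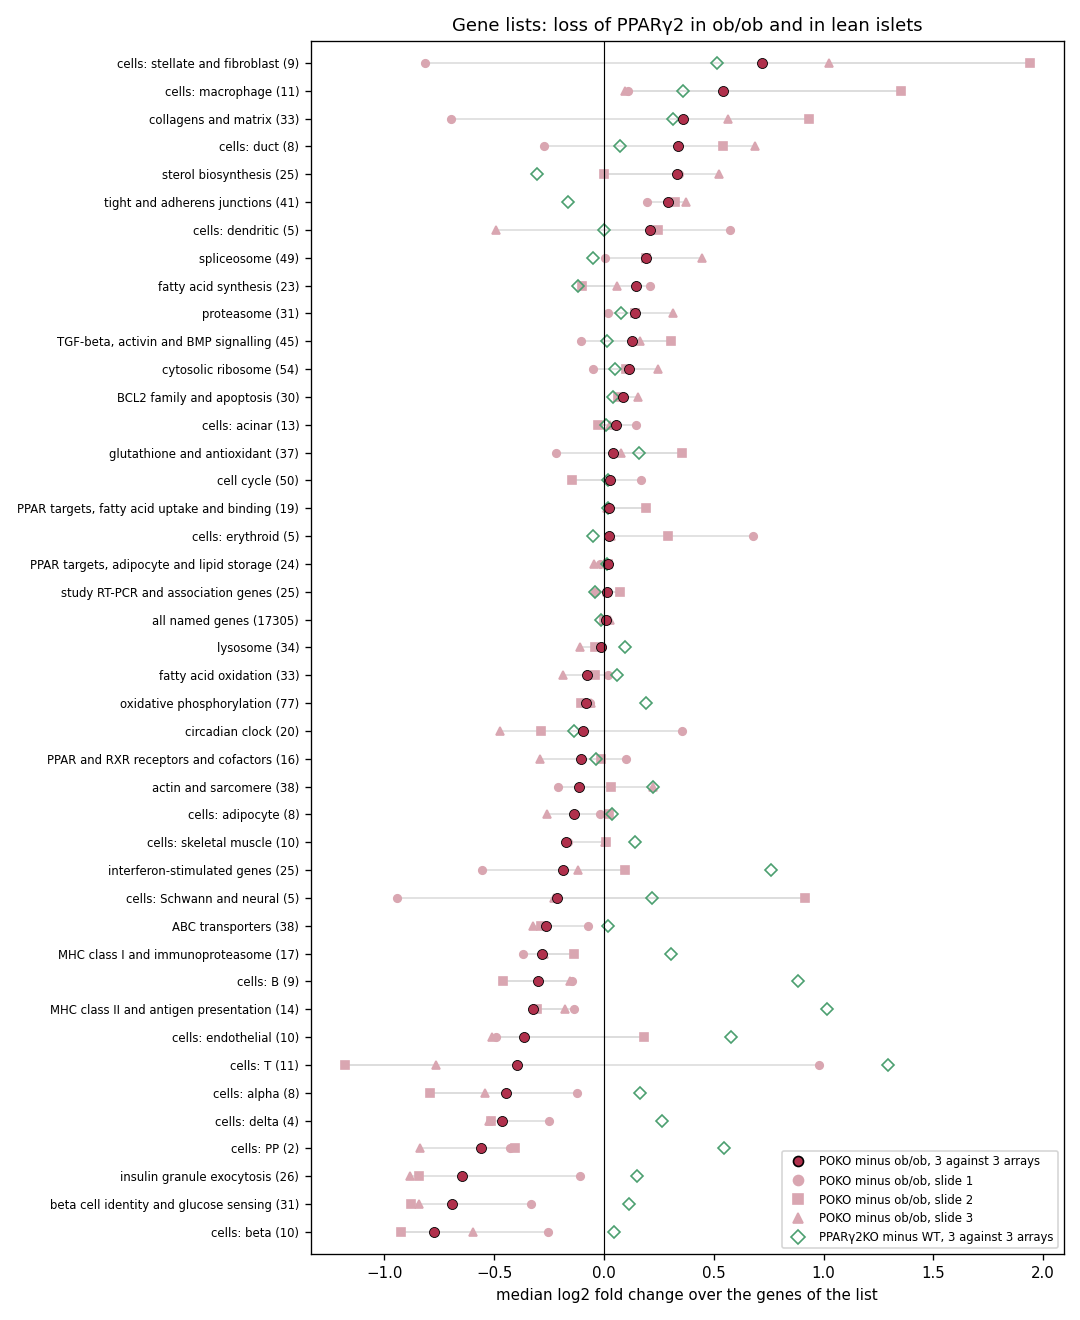
Median log2 difference (x axis) of each gene group (y axis, with the number of genes) for POKO minus ob/ob islets over all arrays (dark points), for the same within each of the 3 slides (pale points joined by a line), and for PPARγ2KO minus WT islets (open diamonds). Beta cell identity and exocytosis genes lay at -0.69 and -0.65 in obese islets and at 0.12 and 0.15 in lean islets, and sterol synthesis at 0.33 and -0.30.

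The genes of cholesterol synthesis were mostly higher in POKO islets. This pathway turns acetyl-CoA into mevalonate, squalene and sterols, and is controlled as a unit by the transcription factor SREBP2, which binds a sterol response element together with NF-Y at a CCAAT box. Of 25 genes, 21 were higher, 10 at an unadjusted p below 0.05 (40%) and 0 lower, 7 did not overlap between the genotypes (28%), and the median was 0.33. No member passed the adjusted limits.

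The stretch of 250 bases before the start of 4 of these 10 genes is shown because it holds the words that this pathway is known for (RefSeq, GRCm38.p6, each read 5′ to 3′ in the direction of the gene). Capitals mark the sterol response element TCACNCCAC in Hmgcs1 and the CCAAT word CCAATC, written GATTGG where it lies on the other strand, in the remaining genes.
Hmgcs1, chr13:119690101-119690350, plus strand: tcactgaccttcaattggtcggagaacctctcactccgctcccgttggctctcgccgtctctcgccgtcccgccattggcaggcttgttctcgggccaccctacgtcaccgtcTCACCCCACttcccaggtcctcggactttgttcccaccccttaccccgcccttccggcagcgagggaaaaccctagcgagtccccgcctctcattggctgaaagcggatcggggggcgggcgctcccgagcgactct
Mvd, chr8:122443423-122443672, minus strand: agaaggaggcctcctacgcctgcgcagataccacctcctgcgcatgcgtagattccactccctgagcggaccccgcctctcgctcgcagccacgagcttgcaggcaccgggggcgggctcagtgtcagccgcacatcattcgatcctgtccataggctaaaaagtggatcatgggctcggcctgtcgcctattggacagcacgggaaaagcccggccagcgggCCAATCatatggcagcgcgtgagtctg
Sc5d, chr9:42264301-42264550, minus strand: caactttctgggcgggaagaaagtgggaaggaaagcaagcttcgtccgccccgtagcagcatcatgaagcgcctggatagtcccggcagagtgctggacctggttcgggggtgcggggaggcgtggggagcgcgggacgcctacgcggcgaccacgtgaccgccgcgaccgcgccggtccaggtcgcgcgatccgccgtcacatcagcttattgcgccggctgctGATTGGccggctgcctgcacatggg
Srebf2, chr15:82147019-82147268, plus strand: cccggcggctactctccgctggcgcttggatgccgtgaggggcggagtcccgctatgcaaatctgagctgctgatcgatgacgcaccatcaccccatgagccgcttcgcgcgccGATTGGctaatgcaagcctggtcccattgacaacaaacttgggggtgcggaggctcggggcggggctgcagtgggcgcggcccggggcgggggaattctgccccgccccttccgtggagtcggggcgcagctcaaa
Among 27025 promoters of this length searched on both strands, 1.04% held TCACNCCAC and 15.1% held CCAATC. Of the 17 sterol genes with an entry, 1 held the first word (Hmgcs1, 137 bases before the start) and 11 (64.7%) the second, among them 5 of the 7 at an unadjusted p below 0.05. The word bound by PPARγ with RXR, AGGTCA repeated after 1 base, was in 0.037% of all promoters and in 0 of the 17. These matches describe the sequence and show no binding.

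Hmgcs1, the enzyme that makes HMG-CoA, was 11.05, 10.95 and 10.46 in ob/ob and 11.66, 11.19 and 11.68 in POKO islets, a difference of 0.69 (SE 0.20). Fdps, which makes farnesyl diphosphate, was 11.07, 11.01 and 10.35 against 11.98, 11.19 and 11.56, or 0.76 (SE 0.25). Mvd, the decarboxylase of the mevalonate steps, was 8.75, 8.49 and 8.11 against 9.03, 8.84 and 9.10, or 0.54 (SE 0.17). The POKO arrays of all 3 genes lay above the ob/ob arrays. Nsdhl, which removes methyl groups from the sterol ring, was higher by 0.61 (SE 0.20), Sc5d, the C5 desaturase, by 0.49 (SE 0.16) and Fdft1, squalene synthase, by 0.38 (SE 0.15), all without overlap. Srebf2, the gene of SREBP2 itself, was 7.79, 7.50 and 7.55 against 7.90, 7.74 and 8.03, or 0.28 (SE 0.12), and overlapped. Sqle, squalene epoxidase, differed by -0.27 (SE 0.17).

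The median of the sterol group was -0.00 between the POKO and the ob/ob array of the second slide, beside 0.34 and 0.53 on the other slides. Without the first ob/ob array the median was 0.37, 11 genes were higher and 2 lower at an unadjusted p below 0.05, beside 10.3% and 11.3% of all named genes. In lean islets the sign was the opposite. The median was -0.30, with 9 genes lower and 0 higher at an unadjusted p below 0.05, beside 4.28% and 4.55% of all named genes. Hmgcs1, for example, differed by -0.54 in lean islets. The difference between the backgrounds had an unadjusted p below 0.05 for 14 of 25 genes, against 16.1% of all named genes. The limma adjusted p of that difference was 0.248 for Hmgcs1, and no member passed an adjusted p of 0.05.

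Genes of epithelial junctions were also mostly higher in POKO islets. Of 41 genes, 32 were higher, 10 at an unadjusted p below 0.05 (24.4%) and 2 lower (4.88%), 20 did not overlap between the genotypes (48.8%), and the median was 0.29. Cldn4, a claudin of tight junctions, was 11.93, 11.42 and 11.05 in ob/ob and 12.39, 12.34 and 12.60 in POKO islets, a difference of 0.98 (SE 0.25). Ctnna1, the link between cadherins and actin, differed little but evenly, at 13.38, 13.25 and 13.26 against 13.52, 13.57 and 13.68, or 0.29 (SE 0.07). Pkp2, a plakophilin of desmosomes, was 9.91, 9.86 and 9.50 against 10.42, 10.25 and 10.44, or 0.61 (SE 0.16). Dsc2, a desmosomal cadherin, was 6.86, 6.76 and 6.87 against 7.36, 7.40 and 7.51, or 0.59 (SE 0.16). None of these genes overlapped, and all 3 slides had a positive group median, 0.20, 0.32 and 0.37. The median without the first ob/ob array was 0.36, with 11 higher and 3 lower at that limit, beside 10.3% and 11.3% of all named genes.

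Both junction genes that were lower at that limit are prominent in endocrine and neural cells. Gjd2, the connexin that couples beta cells, was 8.75, 9.65 and 9.52 in ob/ob and 8.59, 8.29 and 8.17 in POKO islets, a difference of -0.96 (SE 0.32). Cdh2, N-cadherin, was 7.06, 7.55 and 7.13 against 6.51, 6.54 and 6.25, or -0.81 (SE 0.31), while Cdh1, E-cadherin, was higher by 0.41 (SE 0.14). Duct cell genes gave a median of 0.34 over 8 genes, with Krt19 higher by 0.71 and Sox9 by 0.50 but Krt7 lower by 0.60. The mean level of the 7 of them measured on every array (an outlier spot removed Muc1 from 1 ob/ob array) was 11.22 to 11.79 on the ob/ob arrays and 11.37 to 11.82 on the POKO arrays, so the ranges overlapped, and the mean level of the acinar genes was 17.21 to 17.38 and 17.36 to 17.45. The part of duct and acinar cells in the junction result was not tested. In lean islets the junction group had a median of -0.17 with 7 genes lower and 2 higher at an unadjusted p below 0.05. Over all named genes 4.28% were lower and 4.55% higher in that comparison.

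**Figure D3:**
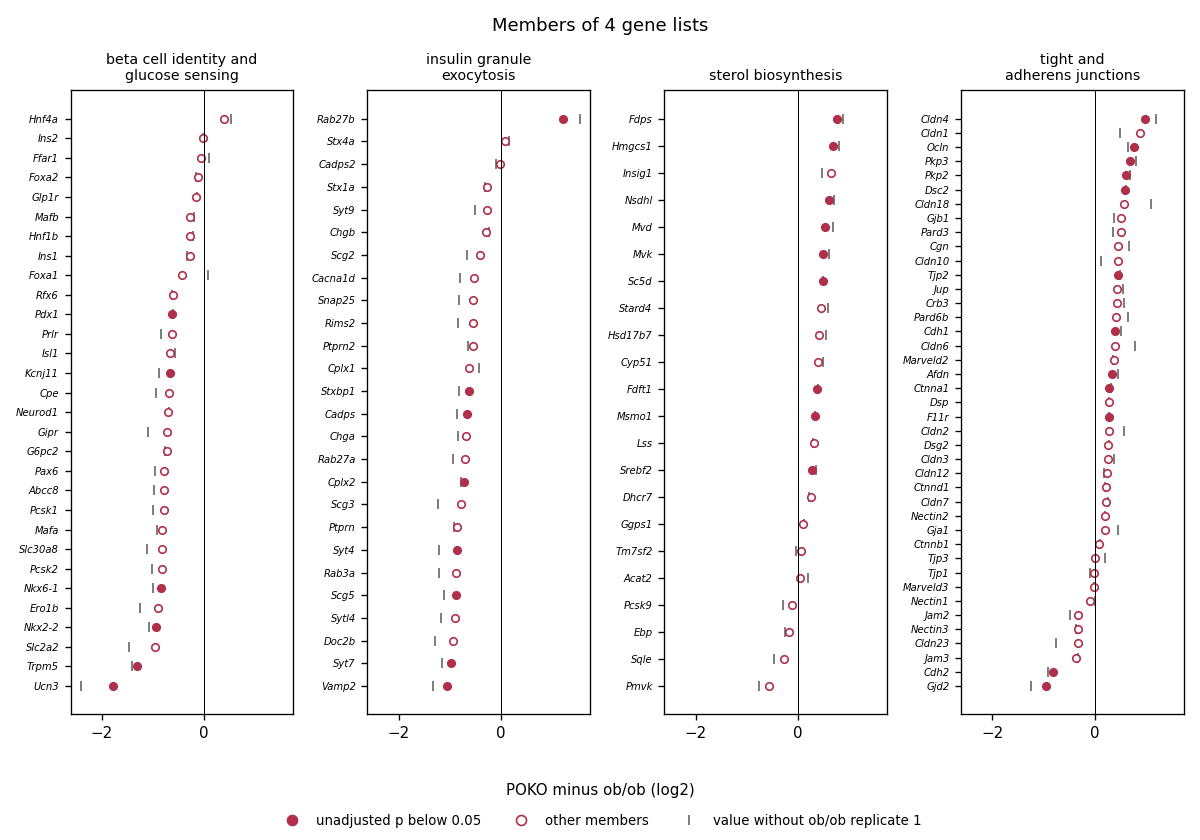
Log2 difference between POKO and ob/ob islets (x axis) of members of 4 gene groups (1 point a gene; filled points have an unadjusted p below 0.05; the tick gives the value without the first ob/ob array). Over the whole groups, members not drawn included, 30 of 31 beta cell identity genes lay below 0 and 21 of 25 sterol synthesis genes above it.

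The receptor's own partners and known targets moved little. Of 16 genes of PPAR and RXR receptors and cofactors, 2 were lower (Pparg and Ncor1, a corepressor, by 0.28) and 1 was higher (Med1, a coactivator, by 0.30) at an unadjusted p below 0.05, and the median was -0.11. Dimmer probes of these cofactors gave -0.14 and -0.15 for Ncor1 and 0.07 and 0.19 for Med1. The PPAR targets of fatty acid uptake and binding, 19 genes, had a median of 0.02. Fabp3, a fatty acid binding protein, was 8.55, 9.28 and 9.51 in ob/ob and 8.27, 8.25 and 8.41 in POKO islets, or -0.80 (SE 0.34), and Dbi, the acyl-CoA binding protein, was 12.82, 12.35 and 12.14 against 13.11, 12.82 and 13.26, or 0.63 (SE 0.22). The adipocyte and lipid storage targets, 24 genes, had a median of 0.02 and only Cebpa, an adipogenic transcription factor, passed that limit, by 0.44 (SE 0.20). Fabp4, the adipocyte fatty acid binding protein, was 11.83, 11.71 and 11.63 against 10.90, 11.74 and 10.75, a difference of -0.59 (SE 0.35) in which the second POKO array overlapped the ob/ob arrays. The coat protein of lipid droplets, Plin2, differed by 0.36 (SE 0.25).

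Fatty acid metabolism showed differences in both directions. Dgat2, the enzyme of the last step of triglyceride synthesis, was lower by 0.68 (SE 0.15). Its dimmer probes, well above background on every POKO and ob/ob array, gave -0.32 (SE 0.22) and -0.23 (SE 0.21). Elovl1, a fatty acid elongase, was higher by 0.39 (SE 0.12) and Acacb, a carboxylase that makes malonyl-CoA at mitochondria, by 0.88 (SE 0.32). Hadh, a beta-oxidation enzyme that restrains insulin release in beta cells, was lower by 0.71 (SE 0.22). The medians were 0.15 over 23 synthesis genes and -0.08 over 33 oxidation genes. Abcg1, a cholesterol exporter, was lower by 0.62 (SE 0.24). Of 38 ABC transporter genes it was the only member at an unadjusted p below 0.05, and the group median was -0.26.

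Subunits of oxidative phosphorylation differed by little. Of 77 genes, 56 were lower, 8 at an unadjusted p below 0.05 (10.4%) against 3 higher (3.9%), and the median was -0.08. Ndufc2, a subunit of complex I, was 13.21, 13.43 and 13.37 in ob/ob and 12.72, 12.67 and 12.72 in POKO islets, a difference of -0.63 (SE 0.14). Atp5e, a subunit of ATP synthase, was 14.25, 14.28 and 14.24 against 13.88, 13.86 and 13.83, or -0.40 (SE 0.09). Both were without overlap and as large without the first ob/ob array, at -0.70 and -0.40. The lean comparison went the other way, with a median of 0.19, and 29 genes higher and 0 lower at the same limit. Over all named genes 4.55% were higher and 4.28% lower there. The difference between the backgrounds had an unadjusted p below 0.05 for 34 of 77 genes, against 16.1% of all named genes.

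This opposition ran through the whole array. The obese and the lean comparison have no array in common, although each slide carried arrays of both. Over 17305 named genes the log2 differences had a correlation of -0.198 (Pearson) and -0.321 (Spearman), given as a description, and 35.7% of the genes had the same sign. Of the genes at an unadjusted p below 0.05 in both, 13 were higher in both, 12 lower in both and 225 opposite. Pparg was among the 12. Mia, an extracellular protein of cartilage, was higher in both, by 0.69 and 0.93. In a direct test of the difference between the backgrounds, 0 probes reached an adjusted p of 0.05 with limma, 5721 (13.9%) had an unadjusted p below 0.05, and the smallest adjusted p was 0.118. The beta cell markers had a mean level of 9.90, 10.52 and 11.23 on the WT arrays, a wider range than in either obese genotype.

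**Figure D4:**
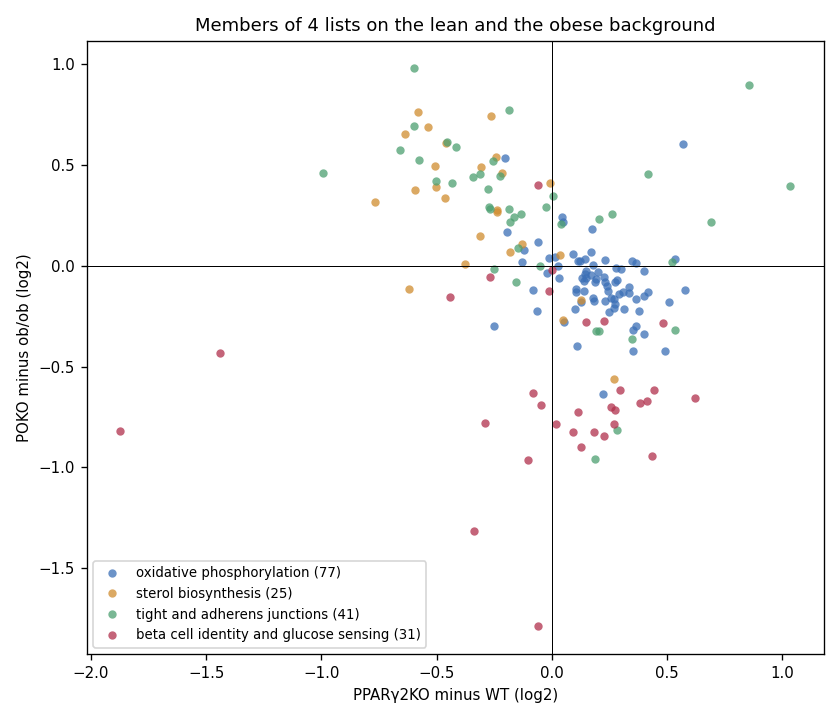
Log2 difference between POKO and ob/ob islets (y axis) against that between PPARγ2KO and WT islets (x axis) for the genes of 4 groups, 1 point a gene. Sterol synthesis genes lay mostly at higher values in obese and lower values in lean islets, with medians of 0.33 and -0.30.

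Genes of matrix, stellate cells and macrophages varied with single arrays, among them the first ob/ob array. For 33 genes of collagens and matrix the median was 0.36, with 1 higher at an unadjusted p below 0.05 and 0 without overlap. The slide medians were -0.70, 0.94 and 0.56. Col1a1, the main fibrillar collagen, read 12.59, 9.98 and 9.73 in ob/ob and 11.25, 12.29 and 11.34 in POKO islets. The first ob/ob array was the highest of all 6, and the other two the lowest. Without it the median was 0.71, 14 genes were higher at an unadjusted p below 0.05, and 10 passed the limits of 0.3 and 1. In that setting 10.3% of all named genes were higher at the unadjusted limit and 2.27% passed the limits as higher. Stellate cell and fibroblast markers followed, with a mean level of 11.06, 9.48 and 9.52 in ob/ob and 10.34, 11.14 and 10.38 in POKO islets, and a median difference over 9 genes of 0.72, or 1.28 without that array. Other arrays moved these medians down. The matrix median was 0.12 without the third ob/ob array, and the stellate median was 0.37 without the second POKO array.

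Macrophage markers had a mean level of 7.83, 6.85 and 6.75 against 7.80, 8.17 and 7.24, and a median difference of 0.54 over 11 genes with 0 at an unadjusted p below 0.05. Without the first ob/ob array Adgre1, Cd14, Itgam and Fcgr1 passed the limits as higher, 4 of the 11, beside 2.27% of all named genes. T cell markers ranged from 5.98 to 7.46 in ob/ob and from 5.32 to 6.92 in POKO islets, so the groups overlapped, and their slide medians were 0.98, -1.18 and -0.76. All 17 genes of MHC class I and the immunoproteasome were lower, with a median of -0.28 and 0 at an unadjusted p below 0.05, or -0.23 and 3 without the first ob/ob array. In that setting 11.3% of all named genes were lower at the same limit. Psmb9, an immunoproteasome subunit, was 11.01, 11.38 and 11.70 against 10.64, 10.69 and 10.79, a difference of -0.66 (SE 0.32). Of 25 interferon-stimulated genes 21 were lower, with a median of -0.19 and 0 at that limit. In lean islets 16 of these 25 were higher at it, beside 4.55% of all named genes, and the median was 0.76.

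**Figure D5:**
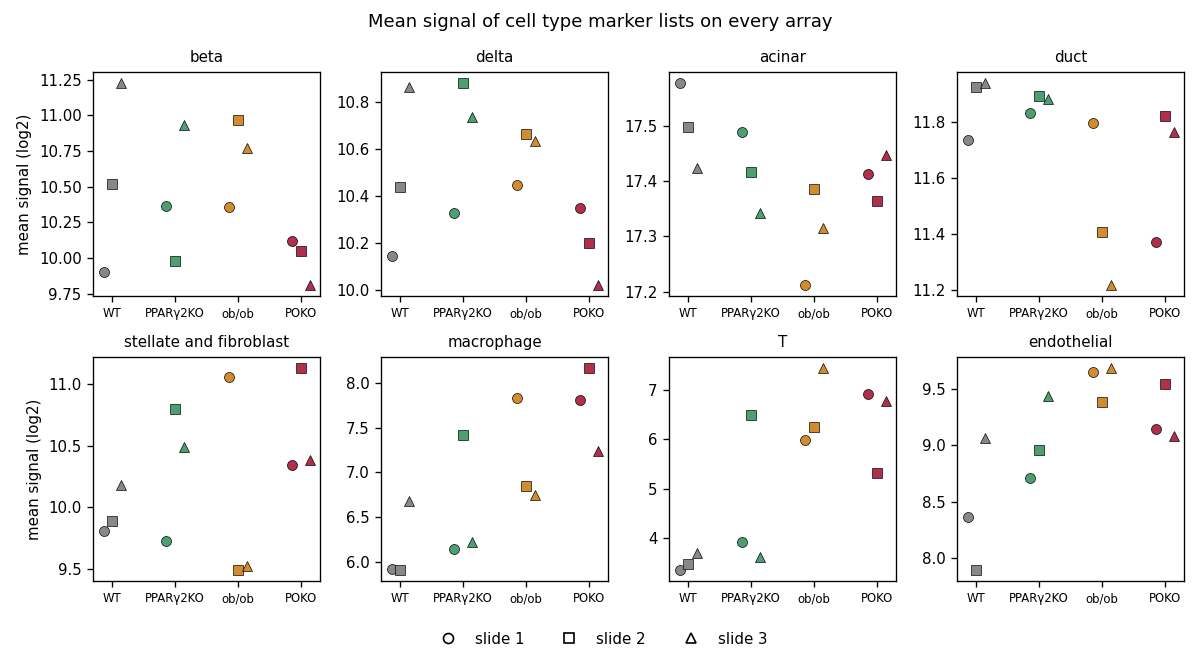
Mean log2 level of the markers of 8 cell types (y axis) on each array by genotype (x axis; 1 point an array, marker by slide). Beta cell markers were lower on every POKO array than on every ob/ob array, stellate markers were highest on the second POKO and the first ob/ob array, and acinar genes stayed between 17.2 and 17.6.

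Some smaller groups were even in sign. In the proteasome 30 of 31 genes were higher with a median of 0.14, and 41 of 49 spliceosome and 44 of 54 cytosolic ribosome genes were higher with medians of 0.19 and 0.11, although 3, 4 and 2 genes were at an unadjusted p below 0.05. On the first slide these medians were 0.02, 0.01 and -0.05. Leaving out the first ob/ob array brought them to 0.21, 0.29 and 0.20, and then 10, 18 and 11 genes were higher at that limit, where 10.3% of all named genes were. Cell cycle genes, 50 in all, had a median of 0.03, with 5 higher (10%) and 3 lower (6%) at an unadjusted p below 0.05. Over all named genes these shares were 6.65% and 5.18%. Cdk1, the kinase of mitotic entry, was higher by 0.70 (SE 0.17) and Cdkn1b, the cell cycle inhibitor p27, lower by 0.71 (SE 0.18). A dimmer Cdkn1b probe, well above background on every POKO and ob/ob array, gave -0.25 (SE 0.20). In the TGF-beta group of 45 genes 5 were higher and 2 lower at an unadjusted p below 0.05, and the median was 0.13. Without the first ob/ob array it was 0.24, with 12 higher and 3 lower, beside 10.3% and 11.3% of all named genes. It was -0.00 without the second POKO array. Smad3, which carries the TGF-beta signal to the nucleus, was higher by 0.49 (SE 0.14), Thbs1, an activator of latent TGF-beta, by 0.58 (SE 0.14) and Bmp7 by 0.70 (SE 0.19), while Id4 was lower by 0.80 and Inha, the inhibin alpha subunit, by 0.95. Nfe2l2, the regulator of antioxidant genes, was higher by 0.63 (SE 0.18), and Gpx2, a glutathione peroxidase, lower by 1.04 (SE 0.34).

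The genes around Pparg on its chromosome were counted last. Of 180 named genes within 10 Mb of its start, 5 were higher (2.78%) and 14 lower (7.78%) at an unadjusted p below 0.05, and 41 did not overlap (22.8%). Over the other 739 genes of the chromosome the counts were 49 higher (6.63%) and 36 lower (4.87%). The median difference near Pparg was 0.00. There 16 genes were higher and 31 lower at that limit without the first ob/ob array, against 79 and 70 of the other 739. Mfap5, a microfibril protein, was 5.76, 4.67 and 4.07 in ob/ob and 6.09, 6.69 and 6.06 in POKO islets, a difference of 1.45. Il17re was lower by 0.91, and Syn2, a synapsin, by 0.56. No gene of this stretch other than Pparg passed the adjusted limits.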

How the data were processed

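Islet RNA was hybridised in 1 colour to 12 Agilent Whole Mouse Genome arrays, 3 a genotype. The authors' deposited scanner files hold intensity values from Agilent Feature Extraction 10.1.1.1, which subtracted a local background; per the study's methods they were then quantile-normalized, and the deposited table of log2 values served as an alternative. Here the processed intensities were quantile-normalized over 12 arrays and put on the log2 scale, without the 1639 control and 919 outlier spots. Spots sharing a probe were averaged, which left 41174 probes. No spot was saturated. RefSeq accessions gave 25097 probes a symbol. A limma fit (limma 3.58.1, R 4.3.3) of all 12 arrays by genotype alone gave log2 fold changes, with Benjamini-Hochberg adjustment over all probes. The study's array as a blocking variable could not be fitted, since each array is 1 sample. Standard errors rest on 9.28 degrees of freedom. With 3 arrays a genotype the number of arrays limits the precision. Scripts were tested on simulated data. Members, lists, motifs and named genes were chosen with earlier results of these data known. Genes to name were Pparg and Lep, called genes, and the 12 largest rises and falls at an unadjusted p below 0.01 without overlap. Added were up to 4 members a list at an unadjusted p below 0.05, genes the study names, and up to 6 genes near Pparg. Not all genes that these rules pick are given, among them several of the falls and several study genes. Other members given as examples were chosen after their values were seen, and a few genes are not reported here. Same-numbered POKO and ob/ob arrays share a slide; their deviations from the group means correlated by -0.03, 0.01 and 0.15, so the number was not used to pair them.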

Additional observations from a re-analysis of the deposited data

How the results depend on the processing

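The called probes depended on the processing. The 9 became 18 with no fold limit, 15 with a 75th percentile shift and 5 with only probes well above background. The count was 267 with only the 6 arrays compared in the fit, 2011 with array weights and 0 with normexp background correction. The weights were 0.50, 3.75 and 0.62 for the ob/ob arrays in replicate order. Of all arrays, ob/ob replicate 2 had the largest weight and WT replicate 3 the smallest, 0.42. Leaving out 1 array gave 2 (first WT array) to 1324 (first ob/ob array). The 2 probes at an adjusted p of at most 0.05, a count added after the data were seen, became 0 with the percentile shift, normexp, the filter on dim probes and the 6 arrays, 1 with the authors' log2 values and 5388 with weights, and 1 to 27 with 1 array left out (27 without the first ob/ob array). With the replicate block both counts were 0, and Pparg kept -2.42 with an adjusted p of 0.388, past the limit of 0.3. Under normexp Pparg gave -1.39 (adjusted p = 0.521). With 1 array left out it lay between -2.81 and -2.19, with an adjusted p of 0.022 to 0.419, and was not called without the first POKO, either of the other ob/ob, the second PPARγ2KO, or the first or second WT array. The test of the difference between backgrounds gave 1 probe with the authors' values, and 1 to 675 with 1 array left out (675 without WT replicate 3).

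No called gene changed sign. With 1 array left out the median of the T cell markers ran from -0.75 to 0.26, and those of acinar, lysosome, TGF-beta and adipocyte target genes crossed 0 as well. Normexp brought the beta cell identity median to -0.32 and that of junctions to 0.15, and the mean of all probes brought the latter to 0.40. Members at an unadjusted p below 0.05 were, for beta cell identity, 18 with the 6 arrays, 23 with weights and 2 to 16 with 1 array left out; for exocytosis 11 with normexp, 12, 19 and 1 to 11; for junctions 19 with weights and 6 to 15; for sterol synthesis 7 to 11 over the alternatives and 4 to 12. The 19 genes near Pparg were 9 within 5 Mb, 36 within 20 Mb, 80 with weights and 6 to 47. What causes these shifts was not tested. Genes near the background have log2 differences that normexp shrinks by its offset of 50.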
